A study of Homo sapiens with 3 samples.

Results

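The genes described here are the core of the human Hippo pathway: the kinase genes STK3, STK4, LATS1 and LATS2, the coactivator genes YAP1 and WWTR1, and the transcription factor genes TEAD1, TEAD2, TEAD3 and TEAD4. They were chosen by name as rows of a gene count table, and all 10 of them are among its 17595 listed genes. The table holds 3 libraries of 1 group, HEK293 cells, an established human embryonic kidney line with a fragment of adenovirus type 5 DNA in its genome, grown in DMEM with fetal calf serum. Each library came from 1000 lysed cells with spiked control RNA, of which an amount equal to 100 cells was amplified, and RNAs were counted at their 5′ ends. Their column headings carry an index, and they are called libraries 20, 21 and 23 after it. No treatment, genotype or time was compared, so genes were compared with each other inside a library, and libraries with each other. Nothing says that the libraries came from separate cultures, so the p-values speak for these 3 libraries, whose spread may be technical only.

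In the Hippo pathway the kinases STK3 and STK4 (also called MST2 and MST1) phosphorylate and activate LATS1 and LATS2. The LATS kinases in turn phosphorylate the coactivators YAP1 and WWTR1 (the gene for TAZ), which are then held in the cytoplasm or degraded. When the kinases are inactive, YAP1 and TAZ enter the nucleus and bind the TEAD factors, which contact DNA and switch on genes of growth, adhesion and the cytoskeleton. The pathway is known for its part in organ size and contact inhibition, and HEK293 cells are widely used to study it.

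Endogenous counts, without spikes, were 1475769, 1330877 and 1545594 in libraries 20, 21 and 23, and 1 count equalled 0.647 to 0.751 counts per 1000000 endogenous counts (CPM). All 5 HEK293 markers looked for were present, with STMN1 at 623 ± 16.6 CPM, VIM at 340 ± 23.4 CPM, CDH2 at 47.4 ± 10.1 CPM and NEFM at 35.6 ± 5.08 CPM as the highest (SD, n = 3). Of 10 markers of other cell types 7 were not listed: PTPRC, CD3E, PECAM1, CDH5, ALB, COL1A2 and MYH7. Among the others were COL1A1 at 3.92 ± 1.04 CPM and ACTA1 at 0.47 ± 0.41 CPM. In such bulk samples fewer cells with an RNA and less of it per cell cannot be told apart.

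The windows around the annotated starts of 4 of the genes give sequence context to the levels. LATS1 and LATS2 are shown because their levels differed most within the kinases, TEAD3 because it was the lowest of all, and YAP1 because it and LATS2 hold the letters that TEAD factors are known to bind. Each line gives 250 bases before and 50 bases after the start, 5′ to 3′ on the gene's strand, from RefSeq on GRCh38.p14. Capitals mark GGAATG, the core TEAD motif, and both strands were searched.
LATS1: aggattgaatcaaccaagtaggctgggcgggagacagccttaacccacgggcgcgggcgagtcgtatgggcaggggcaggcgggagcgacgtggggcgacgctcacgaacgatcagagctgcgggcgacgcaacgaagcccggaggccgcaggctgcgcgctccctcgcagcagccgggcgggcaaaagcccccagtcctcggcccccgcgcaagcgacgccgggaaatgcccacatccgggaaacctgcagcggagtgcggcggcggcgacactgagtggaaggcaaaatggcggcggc
LATS2: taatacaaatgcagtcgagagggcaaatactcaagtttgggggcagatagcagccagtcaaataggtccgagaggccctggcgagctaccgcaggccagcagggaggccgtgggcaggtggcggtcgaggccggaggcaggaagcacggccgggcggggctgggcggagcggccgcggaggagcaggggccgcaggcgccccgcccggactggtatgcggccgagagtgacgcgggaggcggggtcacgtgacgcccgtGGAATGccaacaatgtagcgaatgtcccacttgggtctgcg
TEAD3: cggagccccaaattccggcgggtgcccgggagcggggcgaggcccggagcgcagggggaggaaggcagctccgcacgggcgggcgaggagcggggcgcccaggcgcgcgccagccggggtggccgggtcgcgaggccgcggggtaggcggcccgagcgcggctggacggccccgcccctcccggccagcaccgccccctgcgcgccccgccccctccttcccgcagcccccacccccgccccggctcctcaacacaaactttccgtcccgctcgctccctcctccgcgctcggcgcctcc
YAP1: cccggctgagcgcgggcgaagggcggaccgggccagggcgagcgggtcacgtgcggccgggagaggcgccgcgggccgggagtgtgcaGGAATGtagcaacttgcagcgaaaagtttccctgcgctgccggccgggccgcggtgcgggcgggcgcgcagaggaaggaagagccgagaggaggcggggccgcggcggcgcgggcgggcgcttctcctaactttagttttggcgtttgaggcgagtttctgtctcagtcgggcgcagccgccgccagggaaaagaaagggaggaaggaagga

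These windows lie at chr6:149718052-149718351 (minus strand), chr13:21061537-21061836 (minus strand), chr6:35497030-35497329 (minus strand) and chr11:102110197-102110496 (plus strand). The match in YAP1 begins 162 bases before the start, at position -162, and that in LATS2 at position 10 of the transcript. Windows were found for 7 of the 10 genes, 2 of which, YAP1 and LATS2, held the motif, against 14.0% of all 35116 windows in the table and 16.7% of genes in any of their windows. A match is a run of letters, not a measured binding site. G and C made up 70.0% of the LATS1 window, 67.7% of the LATS2 window, 81.3% of the TEAD3 window and 70.7% of the YAP1 window, against a median of 58.7% over all windows. The RefSeq table lists a second start for LATS1, whose window held 30.3% G and C, below that median. The counts are per gene, so they do not say which start was used.

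The genes fell into a main band and a low pair. LATS1, STK4, YAP1, STK3, TEAD1, WWTR1, TEAD4 and TEAD2 averaged between 22.1 ± 1.86 and 11.3 ± 3.51 CPM (SD, n = 3), and LATS2 and TEAD3 averaged 3.44 ± 0.56 and 2.54 ± 0.49 CPM. All 10 had a count in each library, against 72.6% of all listed genes, and 8 averaged at least 10 CPM, against 44.6%. Their median level was 17.3 CPM, beside 7.16 CPM over all listed genes. Even LATS1, the highest of them, stood below 5302 other genes. TEAD3 stood below 11114. Counting error alone is wide at this depth: the exact 95% Poisson interval of the pooled level ran from 17.9 to 26.9 CPM for LATS1, from 15.0 to 23.4 CPM for YAP1 and from 1.26 to 4.52 CPM for TEAD3. Such intervals cover counting error only. Like the tests between libraries below, they take each count as an independent molecule, which the sources used here do not state.

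**Figure D1:**
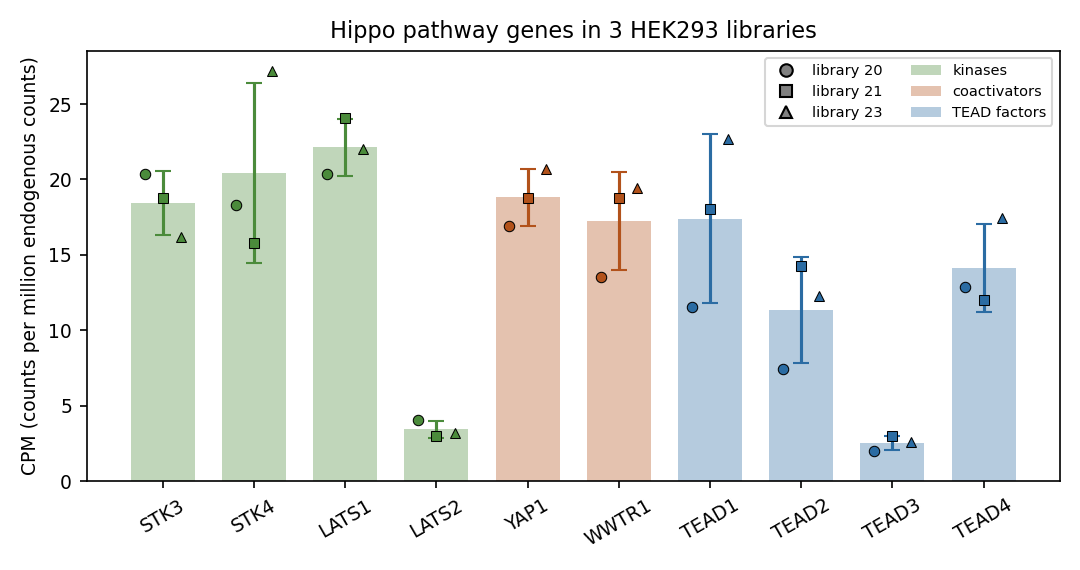
Level of each gene in CPM (counts per 1000000 endogenous counts, linear axis) in libraries 20, 21 and 23 (points), with the mean (bar) and SD (error bar, n = 3), coloured by role. LATS2 and TEAD3 lie below 5 CPM in each library, and each of the other 8 genes lies above 7 CPM in each.

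**Figure D2:**
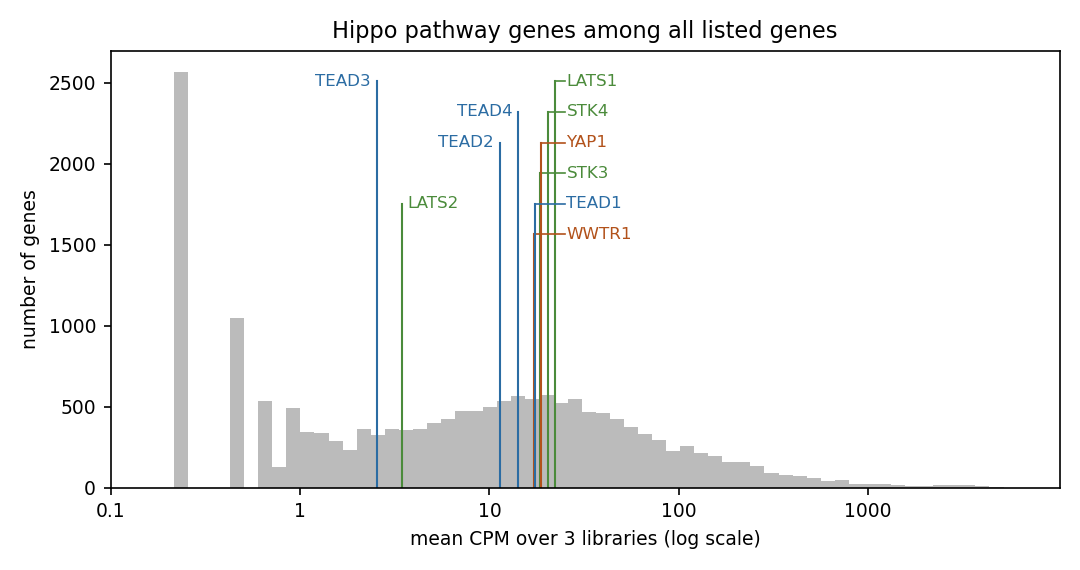
Number of genes by mean CPM over the 3 libraries (log axis) for all 17595 listed genes (grey), with a line at the mean of each of the 10 genes. Most of the lines lie near the middle of the main hump, between 11.3 and 22.1 CPM, and LATS2 and TEAD3 lie to its left.

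The counts of the upstream kinases STK3 and STK4 did not differ past the threshold. STK3 had 30, 25 and 25 counts in libraries 20, 21 and 23 (20.3, 18.8 and 16.2 CPM). STK4 had 27, 21 and 42 counts (18.3, 15.8 and 27.2 CPM). STK3 was the higher of them in libraries 20 and 21 and the lower in library 23, so the ranges overlapped. In a library the log2 ratio of STK3 over STK4 was -0.11 ± 0.54 (SD, n = 3), a fold of 0.924 with a 95% interval from 0.679 to 1.26 (limma's moderated test, adjusted p = 0.673). STK3 made up 48.1% ± 9.38 of the counts of both.

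The LATS kinases, the direct kinases of YAP1 and TAZ, differed by several fold. LATS1 had 30, 32 and 34 counts in libraries 20, 21 and 23 (20.3, 24.0 and 22.0 CPM). LATS2 had 6, 4 and 5 counts (4.07, 3.01 and 3.24 CPM). The lowest library of LATS1 was 5 times the highest of LATS2 in counts. LATS1 exceeded LATS2 by 2.58 ± 0.32 on the log2 scale (SD, n = 3), a fold of 5.97 with a 95% interval from 4.38 to 8.13 (limma adjusted p = 1.59e-18, higher in 3 of 3 libraries). LATS2 thus held 13.5% ± 2.85 of the counts of the LATS genes. LATS2 also lay below STK3 (log2 ratio -2.32 ± 0.16) and STK4 (-2.43 ± 0.46), with limma adjusted p = 2.55e-16 and 3.14e-17. LATS1 did not differ past the threshold from STK3 (log2 ratio 0.26 ± 0.23, 95% interval from -0.18 to 0.71, limma adjusted p = 0.338) or from STK4 (0.15 ± 0.45, 95% interval from -0.30 to 0.59, limma adjusted p = 0.605). Summed, STK3 and STK4 had 57, 46 and 67 counts and LATS1 and LATS2 had 36, 36 and 39, a ratio of 1.53 ± 0.23 given without a test.

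In the main fit, to all 3 libraries, the limma values share an SE of 0.22 on the log2 scale. There the variance was shared fully across the 45 pairs of the 10 genes. The pairs reuse the same genes and are not independent, so these p-values are too small and their size is not read. Calls near the 0.05 threshold, such as TEAD1 over TEAD2 (limma adjusted p = 0.0175), are thus uncertain. The shared SE takes no account of how few counts LATS2 and TEAD3 had, 15 and 11 pooled. The limma intervals of their pairs are thus too narrow. The exact Poisson interval of the LATS2 level alone, from 1.93 to 5.68 CPM, was relatively wider than that of LATS1 over LATS2. Ratios of these pairs also depended on the pseudocount: LATS1 over LATS2 was 2.67 at 0.1 and 2.47 at 1 on the log2 scale. With library 20 left out the SE was not shared but differed between pairs, and p-values rose even where ratios hardly moved. LATS1 over LATS2 then had a log2 ratio of 2.75 and a limma adjusted p of 0.0139. For LATS2 over STK3 and over STK4 the limma adjusted p was 0.0175 and 0.0372.

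The counts of the coactivators YAP1 and WWTR1 did not differ past the threshold either. YAP1 had 25, 25 and 32 counts in libraries 20, 21 and 23 (16.9, 18.8 and 20.7 CPM). WWTR1 had 20, 25 and 30 counts (13.6, 18.8 and 19.4 CPM). Their counts were equal in library 21, YAP1 led in the other libraries, and the ranges overlapped. The log2 ratio of YAP1 over WWTR1 was 0.14 ± 0.16 (SD, n = 3), a fold of 1.10 with a 95% interval from 0.807 to 1.50 (limma adjusted p = 0.632). YAP1 made up 52.4% ± 2.86 of the summed counts of both.

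Among the TEAD factors TEAD1, TEAD4 and TEAD2 carried nearly all counts. TEAD1 had 17, 24 and 35 counts in libraries 20, 21 and 23 (11.5, 18.0 and 22.6 CPM). TEAD4 had 19, 16 and 27 counts (12.9, 12.0 and 17.5 CPM). These ranges overlapped, with TEAD4 ahead of TEAD1 only in library 20. TEAD2 had 11, 19 and 19 counts (7.45, 14.3 and 12.3 CPM). TEAD3 had 3, 4 and 4 counts (2.03, 3.01 and 2.59 CPM) and overlapped with none of its paralogs. As shares of the TEAD counts, TEAD1 held 37.8% ± 3.60, TEAD4 31.7% ± 6.30, TEAD2 24.8% ± 4.61 and TEAD3 5.69% ± 0.87 (SD, n = 3).

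Of the 6 TEAD pairs 4 passed the threshold. TEAD1 exceeded TEAD3 by 2.58 ± 0.35 on the log2 scale (SD, n = 3), a fold of 5.99 with a 95% interval from 4.40 to 8.16 (limma adjusted p = 1.59e-18). TEAD2 exceeded TEAD3 by 1.98 ± 0.23 (limma adjusted p = 2.44e-13). TEAD3 lay below TEAD4 by -2.32 ± 0.39 on the log2 scale (limma adjusted p = 2.46e-16), and each of these directions was seen in 3 of 3 libraries. Without library 20, where the SE differed between pairs, TEAD3 over TEAD4 was no longer called (limma adjusted p = 0.0509). The log2 ratio of that pair hardly moved, at -2.24. TEAD1 exceeded TEAD2 by 0.60 ± 0.27, a fold of 1.51 (limma adjusted p = 0.0175), but its limma adjusted p was 0.199 without library 20, 0.204 without library 23 and 0.0608 with a prior variance that follows the level. TEAD1 over TEAD4 (log2 ratio 0.26 ± 0.37, 95% interval from -0.18 to 0.71) and TEAD2 over TEAD4 (-0.34 ± 0.52, 95% interval from -0.78 to 0.11) did not pass it (limma adjusted p = 0.338 and 0.202).

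**Figure D3:**
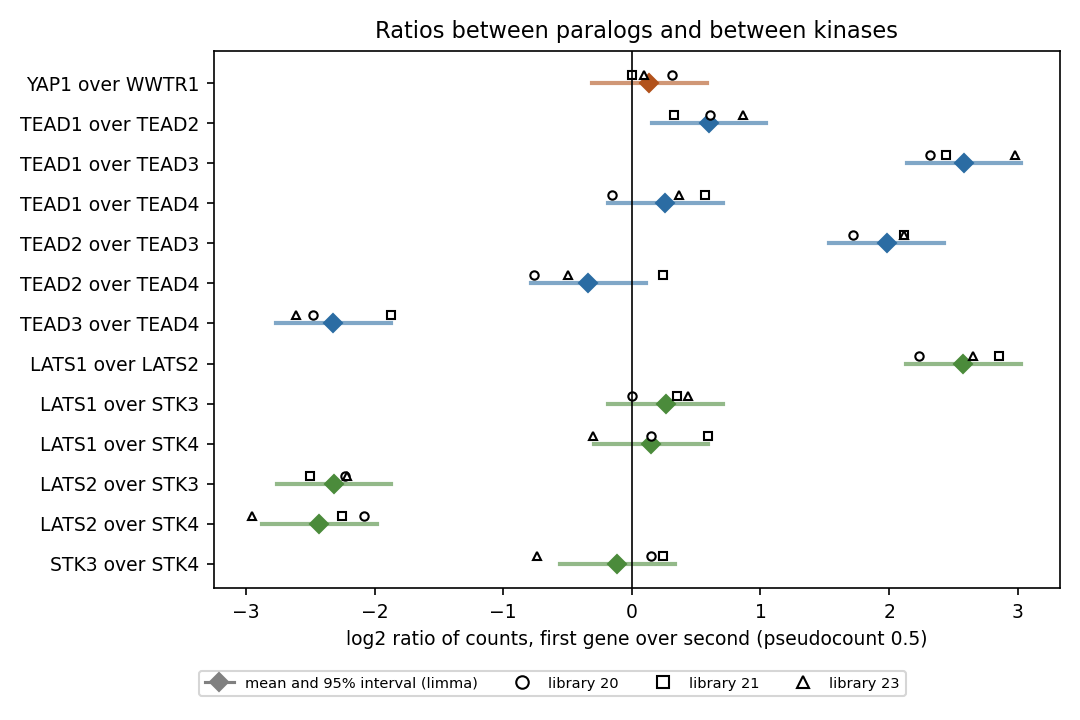
Log2 ratio of counts of the first gene over the second for the 13 pairs of like role: per library (open symbols), mean (diamond) and 95% interval from limma (line). Intervals of every pair with LATS2 or TEAD3 lie away from 0, those of the other pairs except TEAD1 over TEAD2 cross it. For pairs with LATS2 or TEAD3 these intervals are too narrow, as few counts do not widen them.

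Across roles the order of levels had a single step beyond the spread. In order of mean CPM the genes were LATS1, STK4, YAP1, STK3, TEAD1, WWTR1, TEAD4, TEAD2, LATS2 and TEAD3, and 1 of the 9 neighbouring pairs passed the threshold, TEAD2 over LATS2 (log2 ratio 1.59 ± 0.68, limma adjusted p = 8.68e-10). The order of the other neighbours is not resolved by these libraries. Over all 45 pairs 23 passed, and 16 of those were among the 17 pairs that include LATS2 or TEAD3. The exception was TEAD3 over LATS2 itself (log2 ratio -0.39 ± 0.46, limma adjusted p = 0.140). Of the 7 other calls 6 had TEAD2 on the low side, and the seventh was TEAD4 over LATS1 (log2 ratio -0.65 ± 0.33, limma adjusted p = 0.0101). These 7 calls depended on the library and on the scale. Without library 20, where the SE differed between pairs, the number of calls fell to 15. Of the 7, TEAD2 over LATS1 alone was still called. TEAD4 over LATS1 had a limma adjusted p of 0.211 without library 20 and 0.172 without library 21. On a scale per kilobase of the longest annotated coding transcript 0 of the 7 kept call and direction, with TEAD4 over LATS1 at 1.50 and TEAD2 over LATS1 at 0.63 on the log2 scale (limma adjusted p = 4.43e-09 and 0.00815). That scale adds a fixed length term to each ratio and leaves its spread as it was. The changed calls thus come from annotated lengths, which counts at 5′ ends need not follow. Of the 16 calls with LATS2 or TEAD3, 14 kept call and direction under all 9 alternatives. The others, TEAD3 over TEAD4 and TEAD3 over STK4, lost the call without library 20 (limma adjusted p = 0.0509 and 0.0547). Summed, YAP1 and WWTR1 had 45, 50 and 62 counts in libraries 20, 21 and 23, and the TEAD factors had 50, 63 and 85. Coactivator counts were thus 0.808 ± 0.086 of the TEAD counts.

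Different RNAs are captured with different yield, which bounds how such ratios can be read. Spiked RNAs with at least 30 counts in each library were used, 29 of them at 7 nominal amounts. Log2 counts at equal amount had an SD of 0.57, which corresponds to an SD of 0.80 for a ratio of 2 RNAs. Among spiked RNAs with at least 100 counts in each library the latter was 0.88. Such an SD is a typical size, not an upper limit. The ratios of LATS1 over LATS2 and of TEAD1, TEAD2 and TEAD4 against TEAD3 were larger in size than 0.80, and TEAD1 over TEAD2 was smaller. TEAD2 over LATS2 was larger at 1.59, but only 0.82 in library 20. Because each RNA is counted at its 5′ end, levels were not divided by length. On the scale per kilobase LATS1 still exceeded LATS2 (log2 ratio 2.13) and TEAD3 stayed below TEAD1, TEAD2 and TEAD4, while TEAD1 over TEAD2 turned to -1.20 and TEAD1 over TEAD4 to -2.07 (limma adjusted p = 1.45e-06 and 5.23e-14). STK3 over STK4 turned to 0.92 and LATS1 over STK3 to -1.01 on that scale (limma adjusted p = 0.000174 and 3.61e-05). TEAD2 over TEAD4, not called on counts, was called there at -0.87 (limma adjusted p = 0.000353), so that all 6 TEAD pairs passed.

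Set against the 20000 spike molecules per cell that the labels name, the levels correspond to few RNAs per cell. LATS1 came to 11.6 ± 0.89 and YAP1 to 9.87 ± 1.39 molecules per cell (SD, n = 3), WWTR1 to 9.04 ± 1.87 and TEAD1 to 9.16 ± 3.27. LATS2 and TEAD3 came to 1.80 ± 0.30 and 1.33 ± 0.24. All 10 genes together came to 76.6 ± 12.5 molecules per cell. These values rest on the nominal spike amount and on equal capture of spikes and cellular RNA.

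Between libraries of the same cells none of these genes was called after adjustment. With so few counts, and with 0.581% of the genes tested called, that says little about them. In the exact binomial test between libraries, 64 of 11013 genes with at least 10 counts in a pair of libraries were called (0.581%, 2-sided, Benjamini-Hochberg adjusted over all genes and the 3 pairs), and 0 of the 9 Hippo genes tested were. TEAD3 had too few counts for that test. At an unadjusted p under 0.05, 2 of the 9 were past the threshold, against 15.8% of the 11013 genes tested. TEAD1 had 35 counts in library 23 and 17 in library 20, a 1.97-fold difference (exact test p = 0.0255, adjusted p = 0.581). STK4 had 42 counts in library 23 and 21 in library 21, a 1.72-fold difference (exact test p = 0.0431, adjusted p = 0.662). A chi-square test over the 3 libraries called 0 of the 10, against 0.727% of the 11424 genes tested. It placed 0 of the 10 at an unadjusted p under 0.05, against 9.26% of the genes tested. The variance over the mean of the counts, corrected for depth, ran from 0.130 for LATS2 to 2.69 for TEAD1 and 2.55 for STK4. A value of 1 is the level of pure counting error if each count is a molecule.

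Beside the core kinases, most of their partners and scaffolds were present. Of 26 such genes 24 were listed and 19 reached a mean of 10 CPM, against 44.6% of all listed genes. The median over the list was 11.9 ± 0.65 CPM (SD of the library medians, n = 3). In such list medians genes not listed count as 0. Over the 24 listed genes alone the median was 12.4 ± 0.98 CPM, beside 7.16 CPM over all listed genes. MOB1A, the scaffold that LATS kinases bind, led at 77.1 ± 11.5 CPM, while its close relative MOB1B had 11.6 ± 2.97 CPM. STK38L, a kinase of the LATS family, had 28.3 ± 5.02 CPM, NF2, the tumour suppressor merlin, had 26.5 ± 4.06 CPM and TAOK1, a kinase that can activate STK3 and STK4, had 26.0 ± 5.52 CPM. SAV1, the scaffold of the STK3 and STK4 kinases, had 15.5 ± 1.97 CPM. RASSF6 and WWC3 were not listed.

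The STRIPAK complex, a phosphatase assembly that turns off STK3 and STK4, was more highly counted. All 13 of its genes were listed and 10 averaged at least 10 CPM, against 44.6% of all listed genes. The complex had a median of 40.4 ± 9.27 CPM, beside 7.16 CPM over all listed genes. Its leading members were the phosphatase scaffold PPP2R1A at 263 ± 14.3 CPM, PDCD10 at 162 ± 23.8 CPM, MOB4 at 135 ± 19.2 CPM and the catalytic subunit PPP2CA at 81.5 ± 19.0 CPM (SD, n = 3). PPP2R1A and PPP2CA also serve in other phosphatase complexes.

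Proteins that hold, modify or compete with YAP1 and TAZ were uneven. Of 17 genes 16 were listed and 11 averaged at least 10 CPM, against 44.6% of all listed genes. The list had a median of 19.3 ± 3.03 CPM. Over the 16 listed genes alone it was 20.65 ± 1.94 CPM, beside 7.16 CPM over all listed genes. The casein kinase gene CSNK1E, which takes part in YAP1 and TAZ turnover, had 184 ± 36.9 CPM, AMOT, which binds YAP1 at junctions, had 143 ± 14.2 CPM, OTUB1, a deubiquitinase, had 133 ± 7.53 CPM, and USP9X, another, had 74.8 ± 14.0 CPM. The AMOT relatives AMOTL1 and AMOTL2 had 24.9 ± 5.62 and 3.88 ± 1.24 CPM. VGLL4, which competes with YAP1 for TEAD factors, had 19.3 ± 4.14 CPM, VGLL3 and VGLL2 were below 2 CPM, and VGLL1 was not listed. Junction and polarity genes, which act upstream of the kinases, had a median of 8.76 ± 0.83 CPM, and of 9.90 ± 1.15 CPM over the 19 listed. Of these 22 genes, 19 were listed and 9 averaged at least 10 CPM, near the share of all listed genes, 44.6%. They were led by CTNNA1 at 64.1 ± 11.1 CPM, PRKCI at 36.7 ± 1.43 CPM, DLG1 at 35.5 ± 2.85 CPM and PALS1 (MPP5 in the table) at 23.2 ± 3.82 CPM, and FAT2, DCHS2 and CRB2 were not listed.

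Genes known as targets of YAP1 and TAZ were mostly low. Of 22 targets, known from other cells, 19 were listed and 5 averaged at least 10 CPM, against 44.6% of all listed genes. The list had a median of 2.39 ± 0.55 CPM. Over the 19 listed targets alone the median was 3.44 ± 0.56 CPM, beside 7.16 CPM over all listed genes. The 4 highest were PTPN14 at 26.8 ± 1.50 CPM, ASAP1 at 25.3 ± 4.52 CPM, FOXF2 at 19.1 ± 0.85 CPM and GADD45A at 17.3 ± 3.92 CPM. The targets most used as readouts were near the level of a few counts. CCN1 (CYR61 in the table) had 13 counts in all 3 libraries together, and CCN2 (CTGF) and ANKRD1 had 8 each. AXL, IGFBP3 and NT5E were not listed. LATS2, itself a target that feeds back on YAP1, belongs to this list, and PTPN14 and AMOTL2 stand in the list of binding proteins as well. GGAATG stood in a promoter window of 9 of the 16 targets that the RefSeq table holds (56.2%), against 16.7% of all genes. The list holds known targets, so this share is no result of these counts, and genes with more windows had more chances of a match. The 9 were CCN2, ANKRD1, AMOTL2, AXL, FOXF2, NUAK2, PTPN14, TGFB2 and LATS2, so that they include both counted and unlisted genes.

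**Figure D4:**
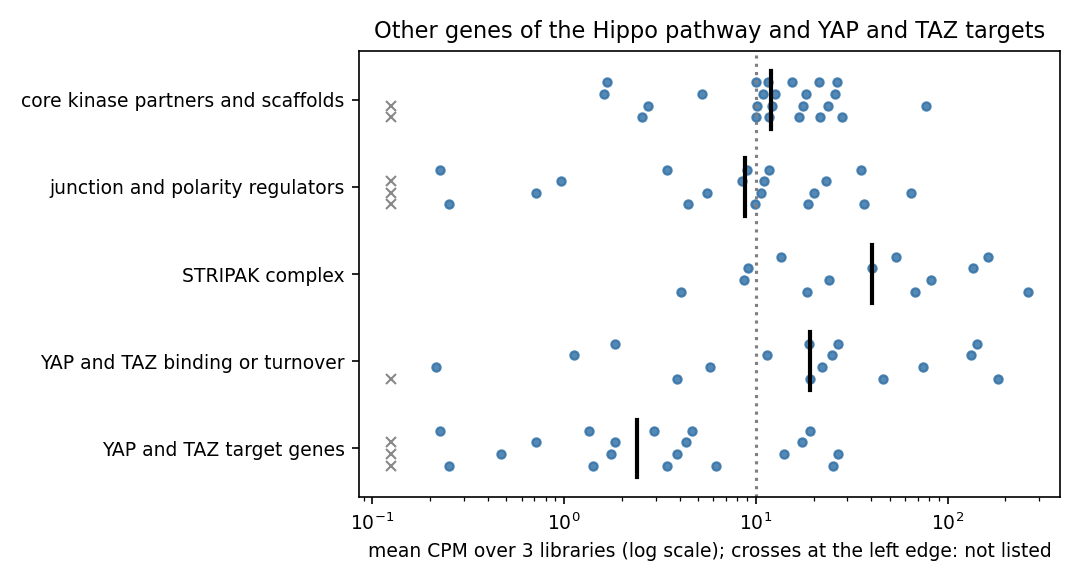
Mean CPM over 3 libraries (log axis) of each gene of 5 lists around the Hippo core; the bar is the list median, with genes not listed counted as 0, the dotted line 10 CPM, and crosses at the left edge are genes not listed in the table. The STRIPAK complex has the highest median, at 40.4 CPM, and the target genes the lowest, at 2.39 CPM.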

How the data were processed

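The members and gene lists were chosen with earlier results of these data known. The authors deposited raw counts per gene for 3 libraries, with no normalization. Per the submitters' processing notes, cutadapt 1.2.1, STAR 2.4.0a and hg19 (GRCh37) were used. The sources used here do not give the counting tool, annotation, use of strand or treatment of the molecular identifiers. Counts may be of reads or molecules, and overlapping genes may share them. TEAD2 overlaps DKKL1 (1, 2 and 0 counts) on the opposite strand, the only gene across any of the 10 listed under its GENCODE v29 name. Older names were not looked up there, so a renamed gene could have been missed. Total counts were 1532672, 1384172 and 1601555, spikes included. The columns differed beyond sampling noise, so none is a second copy of another.

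CPM used endogenous counts. Pairs of genes were tested by limma's moderated one-sample test on per-library log2 ratios (pseudocount 0.5), Benjamini-Hochberg adjusted over 45 pairs at 0.05, where 13 pairs join genes of like role. Libraries were compared by the exact binomial test at a minimum of 10 pooled counts. No set test was run. All members are named, and of each list the 4 highest listed and all unlisted genes, except 1 marker of another cell type that is not reported here; other list genes given were chosen after their values were seen. Spike amounts, in steps of 2, came from general knowledge of the product. Coordinates are of GRCh38.p14, not the authors' build. Scripts were tested on simulated data. Tools were Python 3.11.15, scipy 1.17.1, pandas 2.3.3, R 4.3.3, limma 3.58.1, edgeR 4.0.16 and DESeq2 1.42.0.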

Additional observations from a re-analysis of the deposited data

How the results depend on the processing

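Of 117 values of the 13 pairs of like role under 9 alternatives, 105 kept direction and side of the threshold, 4 lost the call in the same direction and 7 turned direction. The call was gained by 4, all per kilobase of transcript, 3 of them among the 7 that turned and the fourth TEAD2 over TEAD4 (-0.87). Over all 45 pairs the number of calls was 23 with edgeR's quasi-likelihood test and with the exact binomial test on pooled counts, 21 with a trended prior, 23 or 24 with other pseudocounts and 15 to 22 when a library was left out. The 15 came without library 20, where limma's SE differed between pairs. For the TEAD pairs the number of calls was 2 to 4 and for the kinase pairs 3 each time a library was left out. Per kilobase of transcript it was 36 over all pairs, 6 over the TEAD pairs and 5 over the kinase pairs. The per-kilobase scale adds a fixed term for each gene's length and turned TEAD1 over TEAD2 (-1.20), TEAD1 over TEAD4 (-2.07), LATS1 over STK3 (-1.01), LATS1 over STK4 (-0.097) and STK3 over STK4 (0.92). Leaving out a library gave -0.076 to 0.37 for LATS1 over STK4 and -0.29 to 0.20 for STK3 over STK4, neither of which was called.

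Scaling by spikes in place of endogenous totals shifted all genes by up to 0.14 on the log2 scale between libraries 21 and 23, and 263 genes then differed between libraries in place of 64; the members called stayed 0 in every setting tried for that test. TMM, median-of-ratios and spike scaling, set to the same mean total, moved the mean level of a member by up to 0.919%, and leaving out a library by -16.6% to 17.1%. With a threshold of 20 CPM in place of 10, 7 core partners, 5 junction genes and 2 targets were above it. No paired analysis was possible because the libraries form a single group, so there is no other group to pair by replicate number; ratios of genes were taken inside each library. The members rest on 11 to 96 counts over 3 libraries, which limits the precision of each ratio.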
